A study of Mus musculus with 6 samples.

Results

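Elastin (Eln) is the gene of the elastic fiber that was lowest in fibroblasts with stabilized β-catenin, at a mean of 0.0956 FPKM against 7.87 FPKM in control fibroblasts. FPKM is the number of sequenced fragments scaled to transcript length and to the size of the library. The genes described are 10 of the 41126 genes measured, namely Eln, Fbn1, Fbn2, Fbln1, Fbln2, Fbln5, Efemp2, Mfap4, Mfap5 and Emilin1. They were chosen by name as elastin, the microfibril genes and the elastic fiber assembly genes, with the difference between the groups already known. All 10 were found, had a valid estimate in every library and passed the filter on low counts, which 15462 genes passed. The difference between the groups is therefore a description for these 10 genes. No p-value is given for them, and where thresholds are applied to them the counts are descriptive too.

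RNA-seq was performed on 6 cultures of primary ventral dermal fibroblasts from mice of mixed CD1 and C57Bl6 background. The labels give postnatal day 4 for every culture, where the methods of the study give a range of ages that starts at this day. The 3 control cultures received Adenovirus-GFP and carry a wild-type genotype in the labels, whereas the methods of the study describe the conditional Ctnnb1 allele in the controls as well. The 3 gain-of-function (GOF) cultures received Adenovirus-Cre and are Ctnnb1 Δex3/+, so that β-catenin from the endogenous locus lacks the part needed for its degradation. The treatment notes give Adenovirus-Cre at 366 to 500 MOI for 6 h for every culture, and the groups differ in virus as well as in β-catenin, which cannot be told apart. The cells were from 4 animals, each cultured on its own, and 2 of these animals contributed to control as well as to GOF. One is the source of Control replicate 2 and of GOF replicate 0, and the other of Control replicate 0 and of GOF replicate 2. RNA was extracted from whole cultures, so fewer cells of a type and less RNA per cell cannot be told apart.

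Elastic fibers give skin, lung and arteries their recoil. Tropoelastin, the product of Eln, is secreted as a monomer, deposited on a scaffold of fibrillin microfibrils and cross-linked by lysyl oxidases into an insoluble core. Fibulins and related glycoproteins bring tropoelastin, the cross-linking enzymes and the microfibril together, and dermal fibroblasts are the main source of these proteins in the dermis.

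The coding sequences of the core and of the scaffold differ in kind, which a single exon of each shows. Both sequences are from GENCODE M21 on GRCm38, the build named mm10, written on the coding strand, with the first whole codon at base 3. The Eln sequence is exon 8 of 37, at chr5:134729271-134729432 on the minus strand, and its capitals mark the 4 in-frame codon triplets GTNCCNGGN, which encode valine, proline and glycine. The Fbn1 sequence is exon 63 of 65, at chr2:125306270-125306501 on the minus strand, and its capitals mark the 11 in-frame cysteine codons, TGT or TGC. Each was taken as the coding exon with the highest count among those under a set length. These also had to lie outside the annotated untranslated regions of Eln, Fbn1 and Gm9913.
Eln exon 8: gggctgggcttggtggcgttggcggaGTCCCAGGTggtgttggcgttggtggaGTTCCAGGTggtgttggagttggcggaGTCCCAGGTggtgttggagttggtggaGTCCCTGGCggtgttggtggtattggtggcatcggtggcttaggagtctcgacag
Fbn1 exon 63: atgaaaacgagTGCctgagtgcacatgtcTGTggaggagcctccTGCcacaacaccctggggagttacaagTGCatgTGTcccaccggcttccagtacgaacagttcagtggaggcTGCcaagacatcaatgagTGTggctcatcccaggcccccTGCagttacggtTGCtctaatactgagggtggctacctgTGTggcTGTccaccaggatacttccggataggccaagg

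Over the longest complete coding sequence of each gene, Eln held 23 such triplets in 860 codons, or 2.67 per 100 codons, and 0 of 21504 coding genes held more per 100 codons. At least 1 triplet was present in 12.8% of these genes. Glycine took 36.3% of Eln codons, against a median of 6.03% over all coding genes. Fbn1 and Fbn2 held 12.6% and 12.5% cysteine codons, Fbln1 held 10.2%, and Efemp2, Fbln5 and Fbln2 held between 8.76% and 9.09%, against a median of 2.13%. A cysteine content of 10% or more was found in 1.28% of coding genes. Mfap5 held 4.88%, Mfap4 2.85%, Emilin1 2.26% and Eln 0.233%. The members are thus 1 core protein with 36.3% glycine, 6 cysteine-rich fibrillins and fibulins, and 3 others. Of these 3, Emilin1 held 13.7% glycine, Mfap4 11.0% and Mfap5 4.27%. No cutoff was set for a class. Because the members were chosen by name, the fibrillin and fibulin families came with the choice.

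Each library held 35980831 to 42834467 assigned fragments. Axin2, a direct target of Wnt/β-catenin signaling, was at 0.144, 0.136 and 0.177 FPKM in control and at 19.2, 14.4 and 18.7 FPKM in GOF libraries, which is the check of the labels (log2 fold change 6.98, standard error 0.26, edgeR adjusted p = 4.95e-05). Fibroblast markers were abundant in both groups, with a summed level of 3040 to 3880 FPKM in control and 2530 to 3130 FPKM in GOF libraries. Of these 8 markers, 2 were called lower (Col1a2 and Dcn) and 0 higher. All 6 keratinocyte markers stayed under 1 FPKM in every library. The smooth muscle and pericyte markers summed to 1650 to 2300 and 1990 to 3630 FPKM, with 1 of 7 higher and 0 lower, and this sum is mainly Acta2, an actin that cultured fibroblasts also make. Macrophage markers summed to 10.8 to 19.3 and 8.55 to 24.8 FPKM, with 1 of 5 higher (Csf1r) and 0 lower. Endothelial markers summed to at most 4.22 FPKM, with Kdr higher and Tek lower, and Schwann cell markers to at most 5.38 FPKM. The adipocyte sum was 7.18 to 8.94 and 1.80 to 3.17 FPKM, nearly all Fabp4, which was lower. The skeletal muscle sum was 22.7 to 26.6 and 137 to 171 FPKM, nearly all Acta1, which was higher, with the other 3 markers under 1 FPKM in every library. The part of these cell types in the values below was not tested.

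In control fibroblasts the members differed widely in level. Fbln2 was the most abundant with a mean of 903 FPKM, and its range lay above that of every other member. Mfap5, Fbn1 and Efemp2 followed at 239, 209 and 202 FPKM, and neighbours in this order overlapped. Fbln5 was next at 109 FPKM and overlapped neither neighbour. Mfap4 and Emilin1, at 46.9 and 36.2 FPKM, overlapped each other over the group, although Mfap4 was the higher of the pair in all 3 libraries. Fbln1, Eln and Fbn2 were at the bottom with 16.3, 7.87 and 5.09 FPKM, and again neighbours overlapped. In GOF fibroblasts Fbln2 and Mfap5 kept the first places, Fbn1 moved from the third place to the fifth, Mfap4 from the sixth to the eighth, and Eln from the ninth to the last. There neighbours among Emilin1, Fbln1, Mfap4 and Fbn2 overlapped, while every Eln value lay below every Fbn2 value.

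**Figure D1:**
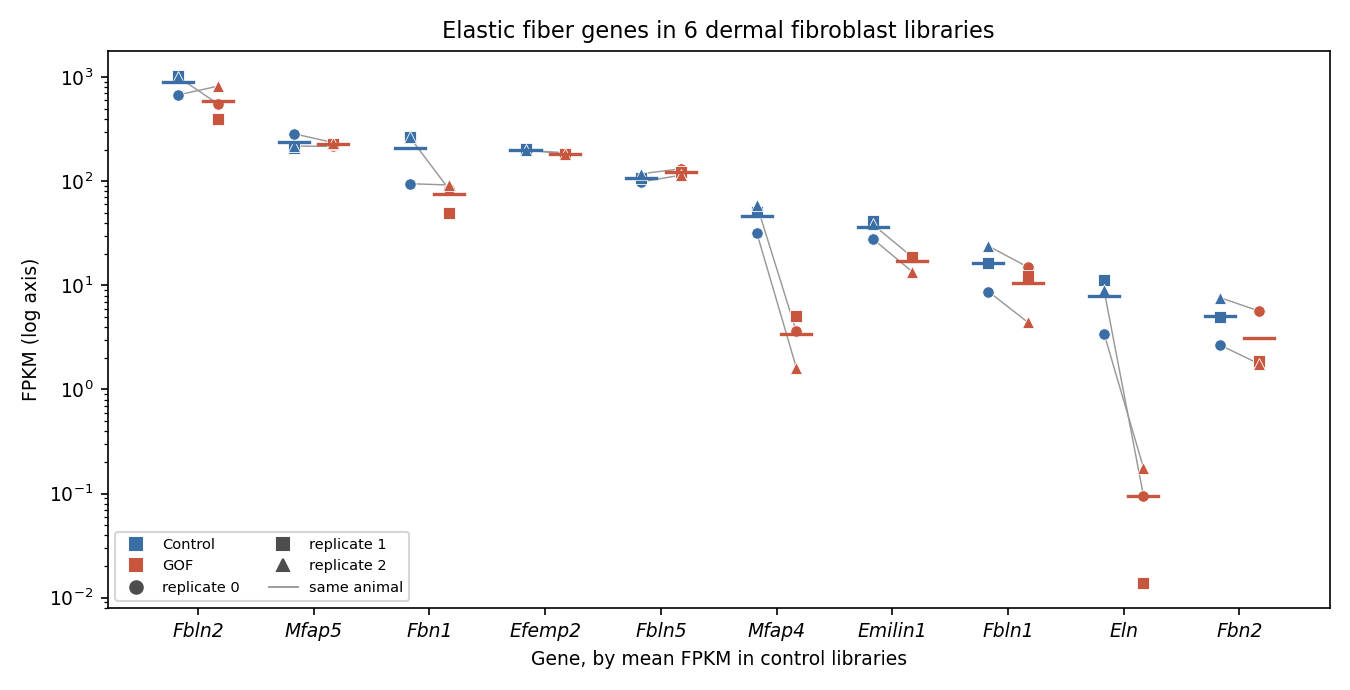
FPKM (log axis) of the 10 elastic fiber genes, ordered by their mean in control libraries, with 1 point per library (n = 3 control, blue, and n = 3 GOF, red), a bar at each group mean and grey lines joining cultures of the same animal. Eln and Mfap4 are separated most between the groups, while Efemp2, Fbln5 and Mfap5 lie almost level.

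Eln, the gene for the fiber's core (ENSMUSG00000029675.9, chromosome 5 from 134702593 to 134747323), was at 3.43, 11.2 and 8.97 FPKM in control replicates 0, 1 and 2 and at 0.0957, 0.0140 and 0.177 FPKM in GOF replicates 0, 1 and 2. These values rest on 257, 1001 and 762 fragments in control and on 8, 1 and 17 fragments in GOF libraries. The groups did not overlap, and the lowest control library was 19.3 times the highest GOF library. The mean was 7.87 ± 4.002 FPKM (SD, n = 3) in control and 0.0956 ± 0.0816 FPKM (SD, n = 3) in GOF samples, a ratio of 82.3. Among the tested genes Eln was at the 55.1 percentile of mean FPKM in control and at the 2.23 percentile in GOF samples. The edgeR log2 fold change was -6.27 with a standard error of 0.72. It ran from -7.18 without GOF replicate 2 to -2.90 with limma on log2(FPKM + 1), a scale that understates changes of low genes. With 1 to 17 fragments, the level within the GOF group carries a large counting error.

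The control libraries themselves spread over a 3.27-fold range in Eln, with replicate 0 at 0.340 of the mean of the other controls. That library was the lowest control for 8 of the 10 members, Fbn1 (0.357), Fbn2 (0.425) and Fbln1 (0.434) among them, whereas it was the highest for Mfap5 (1.33). It was also the lowest control for 44.0% of all tested genes. Within animals, the Eln level in GOF over control culture was 0.0107 for the animal of Control replicate 2 and 0.0517 for the animal of Control replicate 0. The difference in Eln was therefore present in both animals, with and without the low control library.

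The fibrillins Fbn1 and Fbn2 form the rods of the microfibril. Fbn1 (chromosome 2 from 125300594 to 125507993) was at 95.05, 267 and 265 FPKM in control and at 83.6, 49.4 and 92.25 FPKM in GOF libraries. All GOF libraries were lower, but the gap was only from 95.05 to 92.25 FPKM because of Control replicate 0. The mean was 209 ± 98.8 and 75.1 ± 22.7 FPKM (SD, n = 3 each), with a fitted log2 fold change of -1.51 with a standard error of 0.42. The shared animals differed in Fbn1, but each gave a single culture per group, so animal and culture cannot be told apart. The GOF over control ratio was 0.315 in the animal of Control replicate 2 and 0.971 in that of Control replicate 0, and with the animal as a block the log2 fold change was -0.88. That block estimate rests on these animals alone, since Control replicate 1 and GOF replicate 1 are from animals in a single group. Gm9913, a gene on the opposite strand that overlaps Fbn1, had a fitted log2 fold change of -1.65 (edgeR adjusted p = 0.0288). The sources used here do not say whether fragments were counted by strand, so fragments of this pair may be mixed. Gm9913 held a mean of 756 fragments in control and 247 in GOF libraries. Fbn1 held 41800 to 143775 fragments in control and 24608 to 46681 in GOF libraries.

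Fbn2, the fibrillin best known from development (chromosome 18 from 58008623 to 58210487), was at 2.68, 4.95 and 7.65 FPKM in control and at 5.67, 1.86 and 1.76 FPKM in GOF libraries. The groups overlapped, since GOF replicate 0 was above the lowest and the middle control. The log2 fold change was -0.75 with a standard error of 0.52, and it ran from -1.50 without GOF replicate 0 to -0.36 without Control replicate 2. Fbn2 was a small fraction of fibrillin expression in every library, at 1.85% to 2.88% of the Fbn1 level in control and 1.91% to 6.78% in GOF samples.

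The fibulins are glycoproteins that bind tropoelastin and fibrillin. Fbln2 (chromosome 6 from 91212455 to 91272540) was at 678, 1028 and 1004 FPKM in control and at 557, 399.5 and 822 FPKM in GOF libraries. The groups overlapped, with GOF replicate 2 above Control replicate 0, and those cultures are from the same animal, in which the ratio was 1.21. In the other shared animal it was 0.554. The log2 fold change was -0.70 with a standard error of 0.35, and -0.29 with the animal as a block. Without GOF replicate 2 it was -1.09 and past both thresholds given further on. Fbln1 (chromosome 15 from 85205949 to 85286535) was at 8.74, 16.4 and 23.9 FPKM in control and at 15.0, 12.3 and 4.43 FPKM in GOF libraries. These ranges overlapped widely, although both shared animals had less Fbln1 in the GOF culture, at 0.629 and 0.507 of control. Its log2 fold change was -0.69 with a standard error of 0.47.

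Fbln5 and Efemp2, which encodes fibulin-4, are the fibulins required for elastic fiber formation in mice, and Efemp2 also binds lysyl oxidase. Fbln5 (chromosome 12 from 101746565 to 101819055) was at 98.85, 109 and 118 FPKM in control and at 132, 122 and 114.5 FPKM in GOF libraries. The groups overlapped, and the log2 fold change was 0.17 with a standard error of 0.14, the single positive value of the 10. Efemp2 (chromosome 19 from 5473954 to 5482517) was at 203, 204 and 198 FPKM in control and at 189, 182 and 182 FPKM in GOF libraries. Every GOF library was lower, by a small margin, with means of 202 ± 2.93 and 184 ± 4.04 FPKM (SD, n = 3 each). Its log2 fold change was -0.18 with a standard error of 0.11. Among the members Efemp2 had the smallest coefficient of variation in control, 1.45%, and Eln the largest, 50.9%. Mus81 overlaps Efemp2 on the opposite strand and had a fitted log2 fold change of 0.03.

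Mfap4 and Mfap5 are microfibril-associated proteins from unrelated families. Mfap4 (chromosome 11 from 61485431 to 61488900), which binds tropoelastin and fibrillin, was at 31.65, 50.4 and 58.75 FPKM in control and at 3.615, 5.035 and 1.622 FPKM in GOF libraries. The groups were well apart, with means of 46.9 ± 13.9 and 3.42 ± 1.72 FPKM (SD, n = 3 each). The log2 fold change was -3.84 with a standard error of 0.40, and the ratio was 0.0615 and 0.0512 in the shared animals. Mapk7, which overlaps Mfap4 on the opposite strand, had a mean of 5.48 and 4.74 FPKM and was not called (edgeR adjusted p = 0.188). Mfap5 (chromosome 6 from 122505845 to 122529290), also called MAGP-2, was at 287, 211 and 218.5 FPKM in control and at 217, 230 and 236 FPKM in GOF libraries. The groups overlapped. Its log2 fold change was -0.14 with a standard error of 0.15, and 0.02 without Control replicate 0.

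Emilin1 is a glycoprotein found where elastin meets the microfibril (chromosome 5 from 30913402 to 30921277). It was at 28.1, 41.9 and 38.6 FPKM in control and at 18.8, 18.7 and 13.6 FPKM in GOF libraries. All GOF libraries were lower, with means of 36.2 ± 7.22 and 17.04 ± 2.99 FPKM (SD, n = 3 each) and a log2 fold change of -1.27 with a standard error of 0.19. The ratio was 0.487 in one shared animal and 0.484 in the other.

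**Figure D2:**
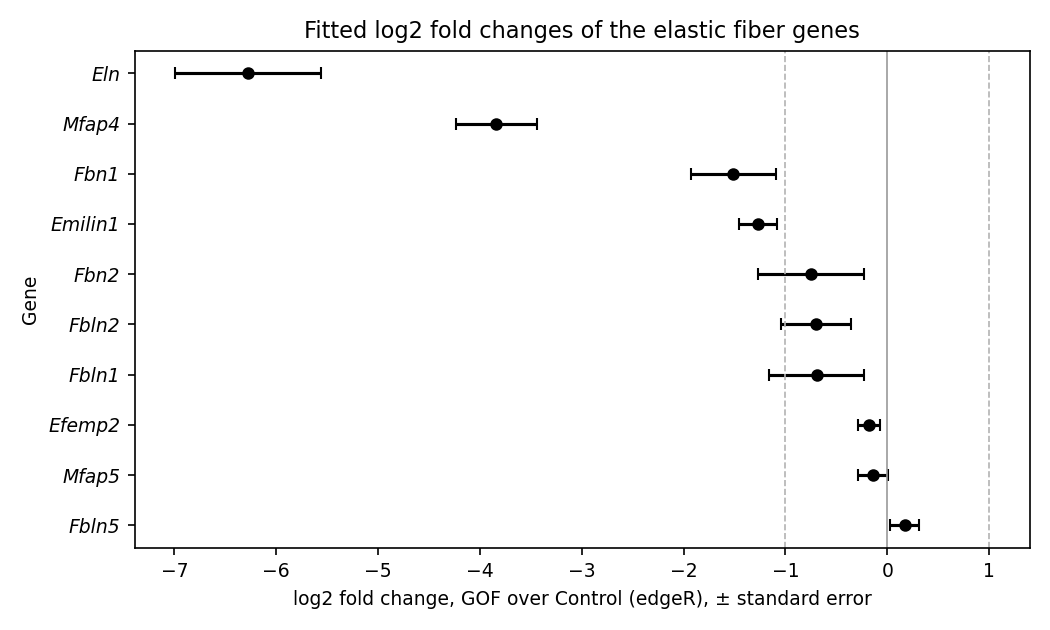
Fitted edgeR log2 fold change (GOF over control, 3 libraries each) of the 10 elastic fiber genes with its standard error, with dashed lines at a fold change of 2. Eln at -6.27 and Mfap4 at -3.84 stand apart from the other genes, which lie between -1.51 and 0.17.

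A gene was called when its edgeR fold change exceeded 2 in either direction and its adjusted p was under 0.05. Eln, Fbn1, Mfap4 and Emilin1 were past both thresholds in the lower direction and 0 members in the higher direction, where 5.64% of all tested genes were past both as lower, 6.69% as higher and 12.3% in either direction. No overlap in FPKM between the groups was seen for 5 members, all lower in GOF, where 19.2% of all tested genes were lower and 20.3% higher without overlap. Since the members were chosen with these values known, nothing is read from their counts. The median log2 fold change was -0.72 over the members and -0.02 over all tested genes, and 9 of the 10 values were negative. Of the 4 members, Fbn1 was past both thresholds in only 6 of 15 alternative analyses. It was not past both with limma, with either replicate block, or without any one of Control replicates 1 and 2 and GOF replicates 0, 1 and 2.

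The composition of the transcript pool for elastic fibers can be read from ratios within a library, which need no scaling between libraries. The summed level of the 10 members was 1436, 1944 and 1942 FPKM in control and 1221, 1020 and 1468 FPKM in GOF libraries, with overlap between the groups. Per 1000 FPKM of Fbn1 there were 36.1, 41.9 and 33.8 FPKM of Eln in control and 1.14, 0.283 and 1.92 FPKM in GOF libraries. The control values lay close together although Eln itself spread over a 3.27-fold range among them, and the groups remained far apart. Per 100 FPKM of Mfap5 there were 11.0, 23.9 and 26.9 FPKM of Mfap4 in control and 1.67, 2.19 and 0.688 FPKM in GOF libraries. Fbln2 took 47.2% to 52.9% of the summed level in control and 39.1% to 56.0% in GOF samples, so it was the most abundant member in every library.

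**Figure D3:**
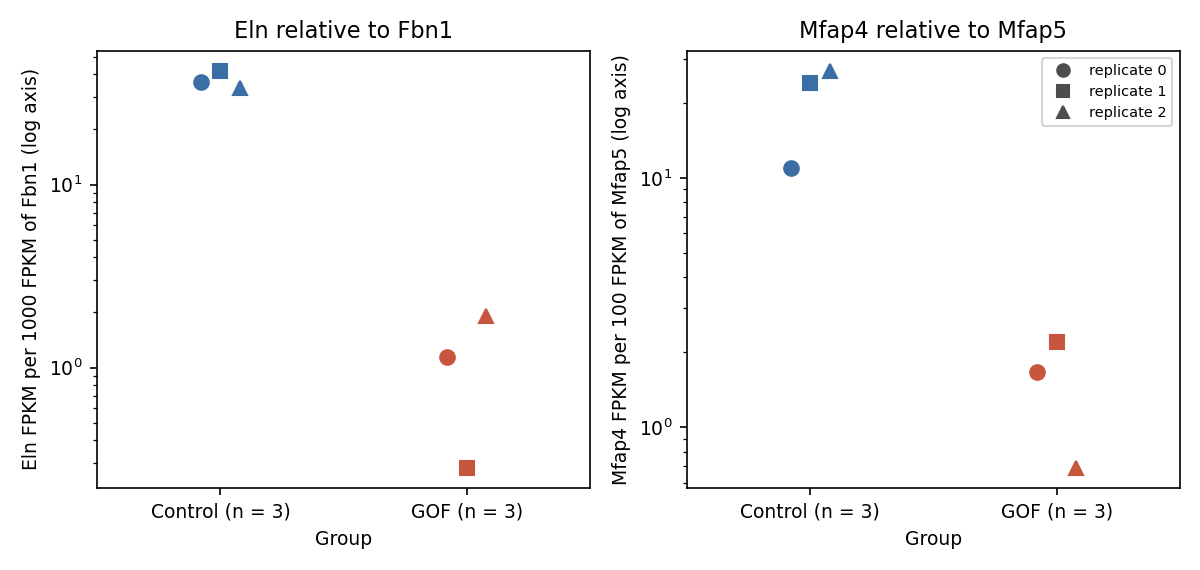
Eln per 1000 FPKM of Fbn1 (left) and Mfap4 per 100 FPKM of Mfap5 (right) within each library, on log axes, for 3 control (blue) and 3 GOF (red) libraries. Eln relative to Fbn1 was 33.8 to 41.9 in control and 0.283 to 1.92 in GOF libraries.

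Other genes of the fiber were taken from lists made by known function. In the counts of these lists, rose and fell mean called higher and called lower. Of 21 further assembly and microfibril genes 19 were tested, and 6 fell and 2 rose in GOF samples, the median being -0.38 on the log2 scale. Over all tested genes 5.64% were called lower and 6.69% higher. Mfap2, which encodes the microfibril protein MAGP-1, was at 9.99, 25.1 and 29.8 FPKM in control and at 5.36, 4.87 and 1.18 FPKM in GOF libraries (log2 fold change -2.62, standard error 0.57, edgeR adjusted p = 0.0162). Emilin2, a relative of Emilin1, fell from 12.9 ± 3.44 to 4.17 ± 0.453 FPKM (SD, n = 3 each), with a fitted log2 fold change of -1.67 (edgeR adjusted p = 0.0016). Both genes were lower in every GOF library, as were 19.2% of all tested genes. Fbln7, a fibulin, fell by 2.76 on the log2 scale (edgeR adjusted p = 0.0081). Adamts10 and Adamtsl2, of the ADAMTS superfamily and known for binding fibrillin-1, had log2 fold changes of -1.77 and -3.82 (edgeR adjusted p = 4.52e-04 and 0.00252). Adamtsl2 was low, at 0.609, 1.16 and 1.34 FPKM in control libraries and with 11, 6 and 18 fragments in GOF libraries. Its log2 fold change was -0.84 with limma on log2(FPKM + 1). Adamts10 was at 15.2, 13.7 and 13.2 FPKM in control and 4.64, 4.74 and 4.75 FPKM in GOF libraries, so that replicates lay close together in both groups.

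Fn1 encodes fibronectin, on which fibrillin microfibrils assemble in fibroblast cultures. It fell from 262 ± 68.4 to 109 ± 24.8 FPKM (SD, n = 3 each), with a fitted log2 fold change of -1.33 (edgeR adjusted p = 0.0176), and was not past both thresholds without GOF replicate 1. The genes that rose were Thsd4, an ADAMTS-like gene whose product promotes fibrillin-1 assembly, with a log2 fold change of 2.31 (edgeR adjusted p = 0.0149), and Hmcn2, a large fibulin relative, with 1.13 (edgeR adjusted p = 0.0263). Thsd4 was not past both thresholds without GOF replicate 0, and Hmcn2 was at most 0.57 FPKM in any library. Hmcn2 was past both in only 5 of 14 alternatives, and not with limma, with either replicate block, or without any one of Control replicates 1 and 2 and GOF replicates 0, 1 and 2. Ltbp1, which anchors latent TGFβ to microfibrils, was at 7.503, 14.1 and 23.3 FPKM in control and at 50.5, 26.0 and 30.7 FPKM in GOF libraries, but was not called (log2 fold change 1.23, edgeR adjusted p = 0.0702). It was past both thresholds with the animal as a block (log2 fold change 1.51, edgeR adjusted p = 0.00387), a fit that rests on the shared animals alone. It was also past both with DESeq2, when low counts were kept and without Control replicate 2 (log2 fold change 1.69). Its adjusted p over the alternatives ran from 0.00387 to 0.221 (edgeR, DESeq2 and limma). Efemp1 and Adamtsl5 were not called either, with log2 fold changes of 0.44 and 0.09.

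The lysyl oxidases oxidize lysines of tropoelastin and collagen before cross-linking. Of 6 genes for cross-linking, all tested, 1 rose and 0 fell, where 12.3% of all tested genes were called in either direction. At an unadjusted p under 0.05 (edgeR) 2 were lower, and the median log2 fold change was -0.22. Loxl4 rose from 7.42, 7.04 and 6.16 FPKM in control to 22.7, 18.0 and 29.0 FPKM in GOF libraries (log2 fold change 1.75, standard error 0.20, edgeR adjusted p = 0.00135). Loxl1, the family member most closely tied to elastin, had a fitted log2 fold change of -0.74 (edgeR adjusted p = 0.00462), which is under a fold change of 2. Lox, the most abundant of them, was at 798, 810 and 701 FPKM in control and 430, 339 and 669 FPKM in GOF libraries (log2 fold change -0.69, edgeR adjusted p = 0.0684). Both were lower in every GOF library, as 19.2% of all tested genes were, and for Lox the gap was only from 701 to 669 FPKM. Loxl2 overlapped between the groups with a log2 fold change of -0.16.

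Of 9 elastin-degrading enzymes 6 were tested, and edgeR called 0 in either direction, where 12.3% of all tested genes were called. At an unadjusted p under 0.05 (edgeR) 0 were higher and 1 lower. The lower gene was Mmp2 (log2 fold change -0.98, edgeR adjusted p = 0.112), which overlapped between the groups. DESeq2, which tested all 9, called 1 higher, and edgeR with the animal as a block called 1 lower. The cathepsins Ctsl and Ctsk and the membrane metalloproteinase Mmp14, the most abundant, had log2 fold changes of 0.16, 0.20 and -0.36. Mmp7 was not tested and had 0 fragments in every control library, against 7, 37 and 4 in GOF libraries.

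Cells bind elastin and microfibrils through the elastin-binding complex and through integrins. Of 11 receptor genes, all tested, 1 was called higher and 1 lower, where 6.69% and 5.64% of all tested genes were. The median log2 fold change was 0.37. Itgb6 rose with a log2 fold change of 4.14 (edgeR adjusted p = 0.0122), but only from 0, 0 and 5 fragments to 35, 37 and 24 fragments. It passed the filter on low counts only through its GOF libraries, so this adjusted p is descriptive only. Its log2 fold change was 7.98 without Control replicate 2, which held the 5 fragments. Itgb8 fell by 1.35 on the log2 scale (edgeR adjusted p = 0.0472) from a mean of 0.406 FPKM. It was past both thresholds in 7 of 14 alternatives, and not with limma on log2(FPKM + 1), with the replicate block by label number, or without any one of the 3 controls and GOF replicates 0 and 1. Itgb1, the common β1 chain, was by far the most abundant, at 475, 512 and 490.3 FPKM in control and 853, 1078 and 937 FPKM in GOF libraries. Its log2 fold change of 0.96 (edgeR adjusted p = 0.0105) was just under a fold change of 2, and it was past both thresholds without GOF replicate 0 or without GOF replicate 2. Ctsa and Itgb5 had log2 fold changes of -0.15 and -0.12.

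Microfibrils also store growth factors of the TGFβ superfamily. Of 7 such genes 6 were tested, and 2 rose and 0 fell, where 6.69% and 5.64% of all tested genes were called higher and lower. At an unadjusted p under 0.05 (edgeR) 0 were lower also, and the median log2 fold change was 0.48. Tgfb2 rose from 3.04, 3.003 and 2.25 FPKM in control to 17.3, 11.4 and 27.4 FPKM in GOF libraries (log2 fold change 2.73, standard error 0.29, edgeR adjusted p = 0.00111). Bmp2 rose with a log2 fold change of 4.58 (edgeR adjusted p = 0.0065) from 3, 0 and 5 fragments to 51, 113 and 41 fragments. Bmp2 also passed the filter on low counts only through its GOF libraries, so its adjusted p is descriptive only. Tgfb3, Tgfb1 and Bmp4 were not called, with log2 fold changes of -0.17, 0.43 and 0.53.

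**Figure D4:**
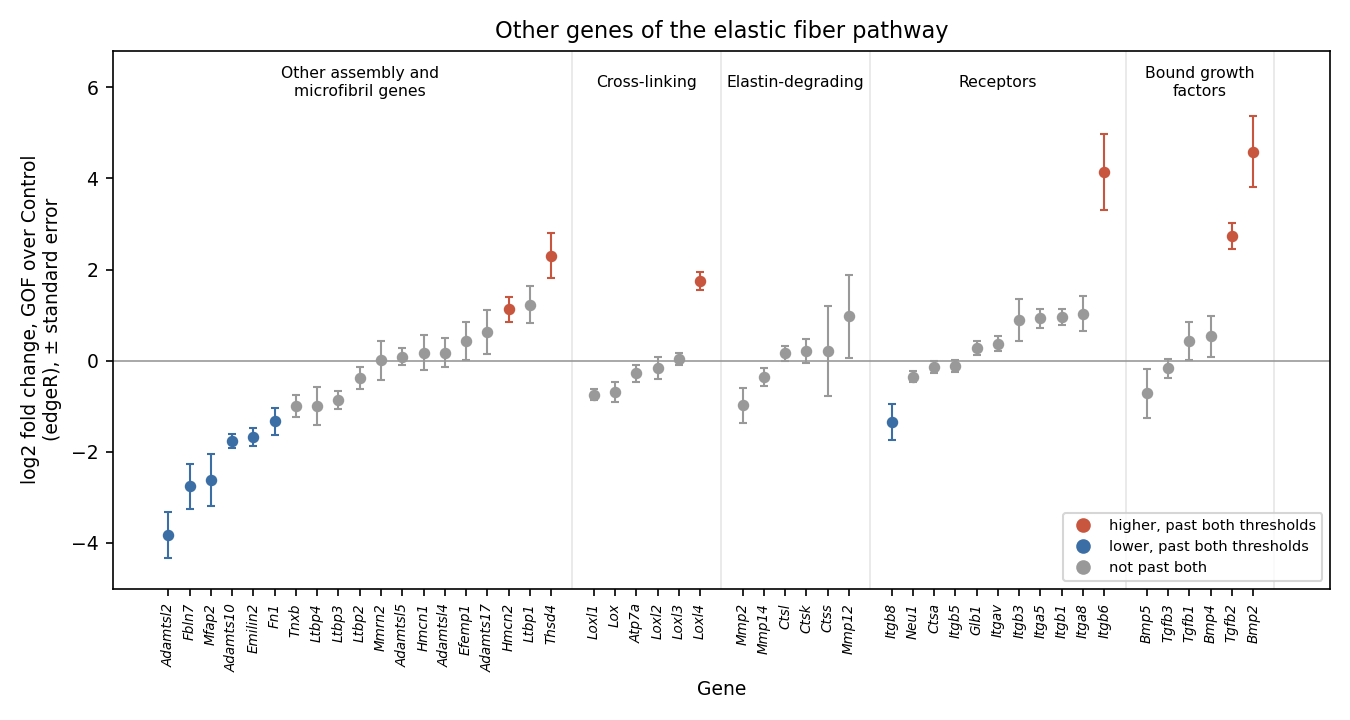
Fitted edgeR log2 fold change (GOF over control, 3 libraries each) with its standard error for every tested gene of the 5 functional lists, coloured by whether it was past both thresholds as higher (red), as lower (blue) or not (grey). Of the 19 assembly and microfibril genes 6 are lower and 2 higher, and Loxl4, Tgfb2, Bmp2 and Itgb6 are higher in the other lists.

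The genes next to the members on the chromosome were also compared. Of the 20 nearest tested coding genes, 1 was called higher and 2 lower, where 6.69% and 5.64% of all tested genes were. The median log2 fold change was 0.02. Limk1, which lies 13995 bases from Eln, had a fitted log2 fold change of 0.52 (edgeR adjusted p = 0.0526) and was higher in every GOF library, and Mettl27 on the other side had -0.02. Neither neighbour of Eln was lower with it. Both neighbours of Fbn1, Dut and Cep152, were lower in every GOF library. Their log2 fold changes were -0.98 and -0.625 (edgeR adjusted p = 0.0243 and 0.0295), under a fold change of 2. Of all 20 neighbours, 7 were higher and 4 lower without overlap between the groups, where 20.3% and 19.2% of all tested genes were. The genes past both thresholds were Slc27a6 next to Fbn2 (-4.09, edgeR adjusted p = 2.75e-04), Hdac11 next to Fbln2 (-1.02, edgeR adjusted p = 0.00386) and Apobec1 next to Mfap5 (1.02, edgeR adjusted p = 0.0181). Apobec1 was past both in 6 of 15 alternatives, with 0.73 under the animal block, and Hdac11 in 10 of 15. Leaving out Control replicate 2 or GOF replicate 0 ended the call of both, leaving out Control replicate 1 or GOF replicate 1 that of Apobec1, and leaving out GOF replicate 2 that of Hdac11.

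The genes whose profile over the 6 libraries was most like that of Eln were found among 12379 genes by the root-mean-square distance of centred log2(FPKM + 0.1) values. They were Scg2 (distance 0.607), Ldb2 (0.669), Ptn (0.704), Palmd (0.763) and the small RNA gene Gm27517 (0.779), which is listed at 0 in every GOF library. Scg2, which encodes a secretory granule protein, was at 10.2, 25.5 and 26.2 FPKM in control and at 0.0818, 0.0828 and 0.264 FPKM in GOF libraries. Ptn, the secreted growth factor pleiotrophin, was at 302, 673 and 870 FPKM in control and at 15.7, 11.8 and 6.73 FPKM in GOF libraries. Both have their lowest control value in replicate 0, as Eln and 44.0% of all tested genes do. They were picked for likeness to Eln over these same libraries, so this shared trait is no separate result. No other member of the elastic fiber was among the 5. The distance also takes in the size of a change, and Mfap4, the next lowest member, was at -3.84 against -6.27 for Eln. The absence of members is therefore no sign that they varied apart from Eln.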

How the data were processed

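Stranded paired-end libraries were sequenced and mapped to mm10 with TopHat by the authors, who ran Cuffdiff. The estimated counts, as deposited, are unscaled fragments per gene and library from Cuffdiff, and 4.95% of them were not whole and all were rounded. The FPKM values were deposited after scaling by transcript length and between libraries. The lncRNA table and 6 columns of values were not used, and 32 genes without a valid estimate in every library were left out. Whether counting used strand is not given in the sources used here.

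Rounded counts of the whole table were fitted in R 4.3.3 with edgeR 4.0.16 (TMM, filterByExpr, quasi-likelihood test), with Benjamini-Hochberg adjustment over 15462 genes. Of the gene identifiers, 97.9% were found in GENCODE M21 (GRCm38). Alternatives used DESeq2 1.42.0, limma 3.58.1, other scalings and filters, replicate blocks and each library left out. The code was tested on simulated data. P-values reflect spread between cultures of 4 animals. The members and lists were chosen with earlier results of these data known. Named genes are all members, all called genes of each list and up to 3 others with the highest mean FPKM, called neighbours, both neighbours of Eln, the 5 genes most like it, and Axin2. Gm9913, Mus81 and Mapk7 were added for their overlap with members, and Mmp2, Mmp7, the neighbours of Fbn1 and the markers named, after their values were seen.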

Additional observations from a re-analysis of the deposited data

How the results depend on the processing

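The members' median log2 fold change was -0.72 and lay between -1.17 and -0.51 over the alternatives, and 3 or 4 members were past both thresholds in each. The count of 0 elastin-degrading enzymes was 1 with DESeq2 and 1 when low counts were kept, as higher in both. It was 1 under a replicate block by animal and 1 without Control replicate 0, as lower in both. With each other library left out it stayed at 0. The count of 2 receptors was 0 when 3 libraries had to reach 1 FPKM, 0 with limma on log2(FPKM + 1), 1 with a replicate block by label number, 4 under a replicate block by animal, and 1 to 5 with each library left out (5 without GOF replicate 2, 1 without Control replicate 0). The count of 2 growth factors was 1 with the FPKM filter and 1 with limma on log2(FPKM + 1). The count of 3 neighbours was 1 with limma on log2(FPKM + 1) and 1 to 3 with each library left out (1 without GOF replicate 0). Over all genes, 1906 were called, and 877 with limma on log2(FPKM + 1). The cause of these changes was not tested. Of 489 values for other named genes, 35 lost and 6 gained a call, among them Adamtsl2, Itgb6 and Bmp2, whose calls ended with limma on log2(FPKM + 1). A further 11 changed sign with no call in either analysis. With each library left out, log2 fold changes ran from -0.214 to 0.790 for Efemp1, -0.048 to 0.253 for Adamtsl5, -0.104 to 0.783 for Bmp4, -0.338 to 0.026 for Loxl2, -0.101 to 0.452 for Ctsk, -0.339 to 0.049 for Tgfb3 and -0.048 to 0.005 for Mettl27, and under the animal block the last 4 were at 0.211, -0.120, 0.076 and 0.020. Replicate numbers did not pair the cultures, since deviations of same-numbered libraries correlated at -0.41, 0.05 and -0.44, while cultures of the same animal correlated at 0.46 and 0.41. The animal block leaves few degrees of freedom, and its estimates rest on the 2 animals that contributed to both groups. Depth limits the GOF level of Eln, which rests on 1 to 17 fragments.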
